A study of Mus musculus with 12 samples.

Results

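The 5 uroplakin genes Upk1a, Upk1b, Upk2, Upk3a and Upk3b were followed in NU1 cells, a line of normal mouse urothelial cells that became immortal on its own during passaging. They were chosen by symbol, as the genes of the plaque proteins of umbrella cells. All 5 were found among the 23337 gene symbols of the count table. The 12 libraries fell into 4 groups of 3, and each group had 1 library from each of experiments 5, 7 and 9, which are also the batches of the labels. Proliferating control cells carried the hairpin shNT and proliferating knockdown cells the hairpin sh4, which is 1 lentiviral hairpin against Stag2, a subunit of the chromosome-folding complex cohesin. Quiescent control and quiescent knockdown cells carried the same hairpins, were grown to confluence and were then given 1 µM rosiglitazone, which activates the nuclear receptor PPAR gamma, and 0.5 µM erlotinib, which inhibits the EGF receptor kinase. The labels call these cells day 7 of differentiation. Cells of every group grew in medium with EGF, serum and hydrocortisone, and the controls are labelled wild type.

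Uroplakins are membrane proteins that tile the surface of the umbrella cells, the outermost cells of the bladder lining, in rigid plaques that help to make it watertight. Upk1a and Upk1b are tetraspanins, proteins that cross the membrane repeatedly, while Upk2, Upk3a and Upk3b cross it once. Upk1a pairs with Upk2, and Upk1b pairs with Upk3a or Upk3b, and pairing lets most of the proteins leave the endoplasmic reticulum. In cultured human urothelial cells, PPAR gamma activation together with EGF receptor blockade is a known way to induce uroplakin RNA. Upk1b and Upk3b are also made by mesothelium, the lining of body cavities.

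Uroplakin RNA was scarce in all 4 groups. The 5 genes together had 1109 counts in the 12 libraries, whose totals ran from 14524429 to 21987539 counts. Upk3b had 543 of these counts, Upk1a 405, Upk2 107, Upk1b 53 and Upk3a 1. Of the 5 genes 3 could be tested, and none of the 3 passed the test in any of 5 contrasts fitted on group means. With a term for the experiment added, 1 call appeared, for Upk3b in quiescence of knockdown cells. A count of 0 in a library allows up to 3 counts, or between 0.136 and 0.207 CPM, the count per 1e+06 counts of the library. These limits cover counting error only, since reads copied by PCR are not independent molecules. Levels are in CPM with totals scaled by TMM, and a mean is given ± SD over the 3 libraries of its group (n = 3). In bulk RNA, fewer cells that make a transcript and less transcript per cell cannot be told apart.

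Of the 12406 genes tested over the whole table, edgeR called 0.0242% after knockdown in proliferating cells, 0.435% after knockdown in quiescent cells, 20.0% in quiescence of control cells, 18.4% in quiescence of knockdown cells and 0.0% for the interaction. With the term for experiment these shares were 0.0242%, 3.55%, 35.3%, 33.0% and 0.0%. The 3 uroplakin genes that could be tested had 0 calls in each on group means, and the DESeq2 Wald test also made 0. At an unadjusted edgeR p under 0.05 they had 1 value, Upk1a in quiescence of control cells, where 34.8% of tested genes had one. In the other contrasts 228 (knockdown, proliferating), 1489 (knockdown, quiescent), 4089 (quiescence, knockdown cells) and 219 (interaction) tested genes were at that level, and 0 uroplakin genes were among them. The log2 ratio with quiescence was 1.15 for Upk1a and 0.76 for Upk3b in control cells, and 0.78 and 1.61 in knockdown cells. Upk2 reached the level of the count filter in 4 libraries, 2 of them quiescent knockdown. It was tested only through that group, where it was highest, so no median over the 3 is given. These values do not stand for all 5 members.

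Stag2 itself was between 113 and 145 CPM in the proliferating control libraries and between 24.6 and 33.3 CPM in the knockdown libraries. In quiescent cells it was between 107 and 128 CPM and between 9.43 and 15.3 CPM. Its groups did not overlap in either state. Nothing in the labels says that the experiments came from separate stocks of cells, so p-values measure the spread between these experiments only.

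Start-site windows are shown for the type III genes, because Upk3a and Upk3b code for related partners of Upk1b and yet had 1 and 543 counts. Windows of 300 bases from RefSeq (build GRCm38.p6), from 250 bases before to 50 after the start of transcription, were matched for Upk1a, Upk3a and Upk3b. Capitals mark the motifs found among 12 that were searched on both strands.

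Upk3b, chr5:136038246-136038545, plus strand: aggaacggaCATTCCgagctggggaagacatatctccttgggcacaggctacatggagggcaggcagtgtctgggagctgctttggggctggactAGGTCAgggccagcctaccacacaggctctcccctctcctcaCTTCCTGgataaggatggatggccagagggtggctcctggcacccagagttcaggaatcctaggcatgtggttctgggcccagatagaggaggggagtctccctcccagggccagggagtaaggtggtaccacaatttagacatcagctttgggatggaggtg

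Upk3a, chr15:85016891-85017190, plus strand: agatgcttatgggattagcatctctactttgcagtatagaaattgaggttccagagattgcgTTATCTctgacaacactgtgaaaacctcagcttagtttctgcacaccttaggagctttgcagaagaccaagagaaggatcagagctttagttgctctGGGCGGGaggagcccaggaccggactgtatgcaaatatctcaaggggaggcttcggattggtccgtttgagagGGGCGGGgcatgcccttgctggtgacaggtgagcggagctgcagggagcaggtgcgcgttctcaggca

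In the Upk3b window the capitals are, in order, the TEAD motif GGAATG on the minus strand, the PPAR-type core motif AGGTCA on the plus strand at -155 to -150 from the start of transcription, and the ETS motif CAGGAAG on the minus strand. These motifs occur in 14.7%, 16.3% and 13.3% of the 32851 windows of the same length. In the Upk3a window they are the GATA motif AGATAA on the minus strand, found in 11.2% of windows, and the KLF motif GGGCGGG at -91 and again at -18, found in 25.6%. The window of Upk1a (chr7:30612685-30612984, minus strand) held none of the 12. The other motifs searched were the forkhead motif TGTTTAC, found in 3.65% of windows, the grainyhead motif AACNNGTT (4.2%), the AP-1 motif TGANTCA (7.81%), the E2F motif GCGGGAAA (1.07%), the CHR motif TTTGAA (17.9%), the TATA box TATAAA (13.6%) and the PPAR direct repeat, which is AGGTCA, any base and AGGTCA again (0.0396%). A direct repeat also holds AGGTCA. A match describes the letters of the window and not binding.

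In the GENCODE M21 annotation Upk1a lies on chromosome 7 (30603092 to 30612847), Upk1b on chromosome 16 (38773184 to 38800328), Upk2 on chromosome 9 (44452715 to 44454976), Upk3a on chromosome 15 (85017141 to 85022547) and Upk3b on chromosome 5 (136038496 to 136046487). No exon of these genes overlapped an exon of another gene. No stretch of 50 bases in their transcripts occurred in a transcript of another gene.

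Upk1a, the tetraspanin partner of Upk2, was the only uroplakin gene at or above the count filter, 0.585 CPM, in all 12 libraries. In experiments 5, 7 and 9 its level was 1.12, 1.56 and 0.738 CPM in proliferating control and 3.66, 1.83 and 2.15 CPM in quiescent control libraries. All 3 quiescent libraries lay above all 3 proliferating ones, though in experiment 7 by little. The means were 1.14 ± 0.410 CPM and 2.55 ± 0.974 CPM. The log2 ratio of the groups, or log2 fold change, was 1.15 (SE 0.52) with an edgeR adjusted p of 0.141, or 0.0657 with the term for experiment, so the call was not made. Its unadjusted edgeR p was 0.0486. Among all tested genes, 17.1% were higher in quiescent control with no overlap.

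Under the knockdown, Upk1a was 1.51, 2.26 and 0.688 CPM in proliferating and 3.94, 1.49 and 2.23 CPM in quiescent libraries of experiments 5, 7 and 9. These groups overlapped, and in experiment 7 the quiescent library was the lower one. The log2 ratio of quiescence in knockdown cells was 0.78 (edgeR adjusted p 0.316, SE 0.51). Between hairpins the quiescent means, 2.55 ± 0.974 CPM and 2.55 ± 1.26 CPM, differed by far less than the spread. The log2 ratio of the knockdown was 0.01 (edgeR adjusted p 0.996, SE 0.51) in quiescent and 0.38 (edgeR adjusted p 0.9998, SE 0.53) in proliferating cells.

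Upk2, the partner of Upk1a, had between 0 and 32 counts in a library. Only 4 libraries were at or above the filter's level, 2 of them quiescent knockdown, and this let the gene into the test. In experiments 5, 7 and 9 the quiescent control libraries held 10, 0 and 4 counts and the quiescent knockdown libraries 32, 6 and 13. Quiescent knockdown was higher than control within each experiment, but the groups overlapped. The means were 0.309 ± 0.350 CPM and 0.856 ± 0.552 CPM. The log2 ratio was 1.49 (edgeR adjusted p 0.575, SE 0.92), or 1.53 (edgeR adjusted p 0.244, SE 0.70) with the term for experiment.

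The proliferating libraries held 12, 4 and 3 counts of Upk2 in control and 6, 10 and 7 in knockdown cells. They overlapped with each other and with the quiescent libraries. With quiescence the log2 ratio of Upk2 was -0.24 (edgeR adjusted p 0.885, SE 0.97) in control and 0.94 (edgeR adjusted p 0.483, SE 0.87) in knockdown cells. Upk1a and Upk2 code for partners of the same dimer, and their log2 CPM over the 12 libraries had r = 0.430 by Pearson and rho = 0.490 by Spearman. For the pairs that are not partners, r was 0.325 (Upk1a and Upk3b) and 0.164 (Upk2 and Upk3b). With the experiment means removed the partner pair was the lowest, at 0.384, against 0.744 and 0.682. The libraries share depth and experiment, so these values are a description.

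**Figure D1:**
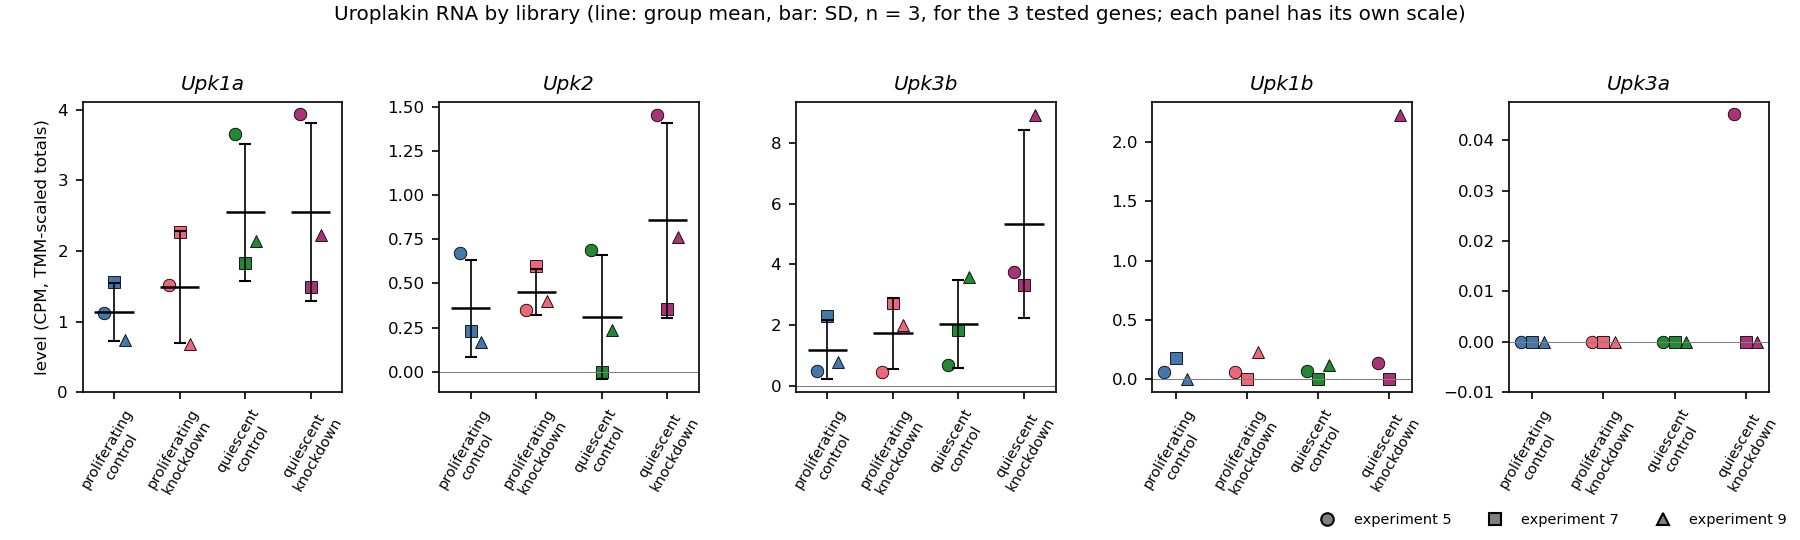
Level of each uroplakin gene (CPM, vertical axis, a separate scale in each panel) in the 12 libraries by group, with the experiment as the symbol, and with the group mean and SD (n = 3) for the 3 tested genes. The quiescent control libraries of Upk1a lie above the proliferating control ones, the quiescent knockdown library of experiment 9 has the highest Upk3b (8.90 CPM) and Upk1b (2.23 CPM), and Upk3a is at 0 in all libraries but 1.

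Upk3b, a partner of Upk1b, had the most counts of the family. In experiments 5, 7 and 9 its level was 0.505, 2.31 and 0.795 CPM in proliferating control, 0.466, 2.74 and 2.01 CPM in proliferating knockdown and 0.690, 1.83 and 3.58 CPM in quiescent control libraries. In quiescent knockdown libraries it was 3.76, 3.34 and 8.90 CPM, the highest level of the 4 groups in every experiment. The mean there was 5.33 ± 3.10 CPM, against 2.03 ± 1.45 CPM in quiescent control and 1.74 ± 1.16 CPM in proliferating knockdown. The share of tested genes that were highest in quiescent knockdown in every experiment was not counted.

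With quiescence in knockdown cells the groups of Upk3b did not overlap, and the log2 ratio was 1.61 (edgeR adjusted p 0.164, SE 0.76). With the term for experiment it was 1.79 (edgeR adjusted p 0.0246, SE 0.53), and Upk3b was then past the threshold. In that fit 15.9% of all tested genes were called higher, and 18.1% of tested genes were higher with no overlap. The call rested on few libraries: leaving out 1 library of the contrast in turn, with the term kept, gave adjusted p values from 0.00460 to 0.107. The call was lost without the proliferating knockdown library of experiment 5 (edgeR adjusted p 0.0922) or 9 (0.107), and without the quiescent knockdown library of experiment 5 (0.0746) or 9 (0.104).

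Between the hairpins in quiescent cells, Upk3b was higher in knockdown libraries within each experiment, by 2.27, 0.82 and 1.29 on the log2 CPM scale in experiments 5, 7 and 9. The groups overlapped, since quiescent control of experiment 9 was above quiescent knockdown of experiment 7, while 10.2% of tested genes were higher with no overlap. The log2 ratio was 1.38 (edgeR adjusted p 0.523, SE 0.76), or 1.56 (edgeR adjusted p 0.118, SE 0.52) with the term for experiment, and was not called. Upk2 and Upk3b were the 2 tested members higher in all 3 experiments in this comparison, as were 25.4% of all tested genes. Upk2 was tested only through quiescent knockdown, the higher group here, so the filter partly set its place in this count. In control cells the log2 ratio of Upk3b with quiescence was 0.76 (edgeR adjusted p 0.521, SE 0.78), with the quiescent library lower in experiment 7. The knockdown in proliferating cells gave 0.53 (edgeR adjusted p 0.9998, SE 0.78).

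The interaction, the difference of the knockdown's log2 ratios in quiescent and proliferating cells, was not called for any member. Its log2 value was -0.37 (SE 0.73) for Upk1a, 1.18 (SE 1.30) for Upk2 and 0.85 (SE 1.08) for Upk3b, each with an edgeR adjusted p of 0.9997. On group means each value was smaller in size than its SE. With the term for experiment the values were -0.35 (SE 0.61) for Upk1a, 1.04 (SE 1.03) for Upk2 and 1.09 (SE 0.77) for Upk3b. The last 2 were above their SE, and no member was called.

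**Figure D2:**
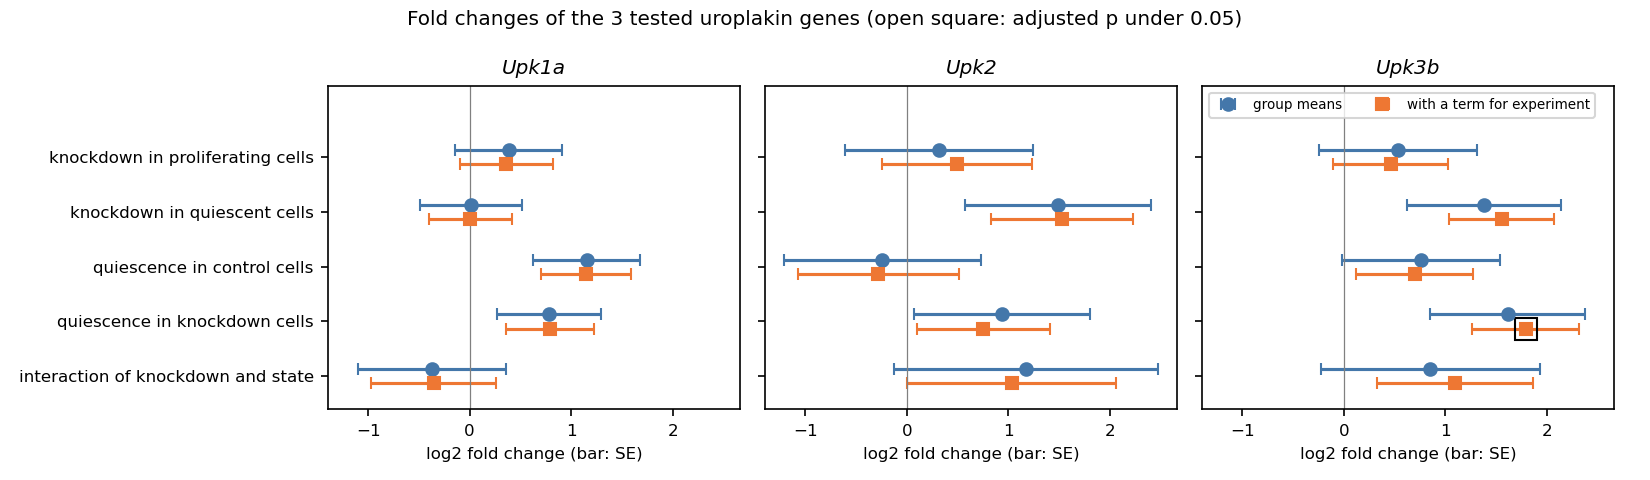
Log2 ratio (horizontal axis) with its SE for Upk1a, Upk2 and Upk3b in the 5 contrasts, from the fit on group means (circles) and with a term for experiment (squares). The only value past the threshold, marked by an open square, is Upk3b in quiescence of knockdown cells with the term, at 1.79.

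Upk1b, the tetraspanin partner of the type III uroplakins, was too low to test. It had 0 to 4 counts in 11 libraries and 38 counts in quiescent knockdown of experiment 9, which made up 71.7% of all its counts. The other quiescent knockdown libraries had 3 counts (experiment 5) and 0 (experiment 7). The library with 38 counts also had the highest Upk3b level of the 12. Upk3a, the partner that assembles into urothelial plaques with Upk1b, had 1 count, in quiescent knockdown of experiment 5, and 0 in the other 11 libraries. So RNA for the Upk1b and Upk3a pair was at or under the limit that a count of 0 allows in most libraries, in quiescent as in proliferating cells.

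Levels were compared between genes per kilobase of the longest GENCODE transcript. In quiescent knockdown cells Upk1a was at 1.80 CPM per kb ± 0.886, Upk3b at 1.51 ± 0.877 and Upk2 at 0.791 ± 0.510, and neighbours in this order overlapped within their SD. Even in that group Upk1a was above only 19.6% of tested genes, Upk3b above 17.6% and Upk2 above 11.7%. Krt20, a keratin of umbrella cells, was at 413 CPM per kb ± 41.6 in the same libraries and above 99.1% of tested genes. Krt18 and Krt7, keratins of simple and of urothelial epithelium, were above 99.96% and 99.2%, and Cd9, a widely expressed tetraspanin, above 97.6%. The order of Upk1a and Upk3b turned when the coding length was used, which gave 3.31 and 6.44 CPM per kb.

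**Figure D3:**
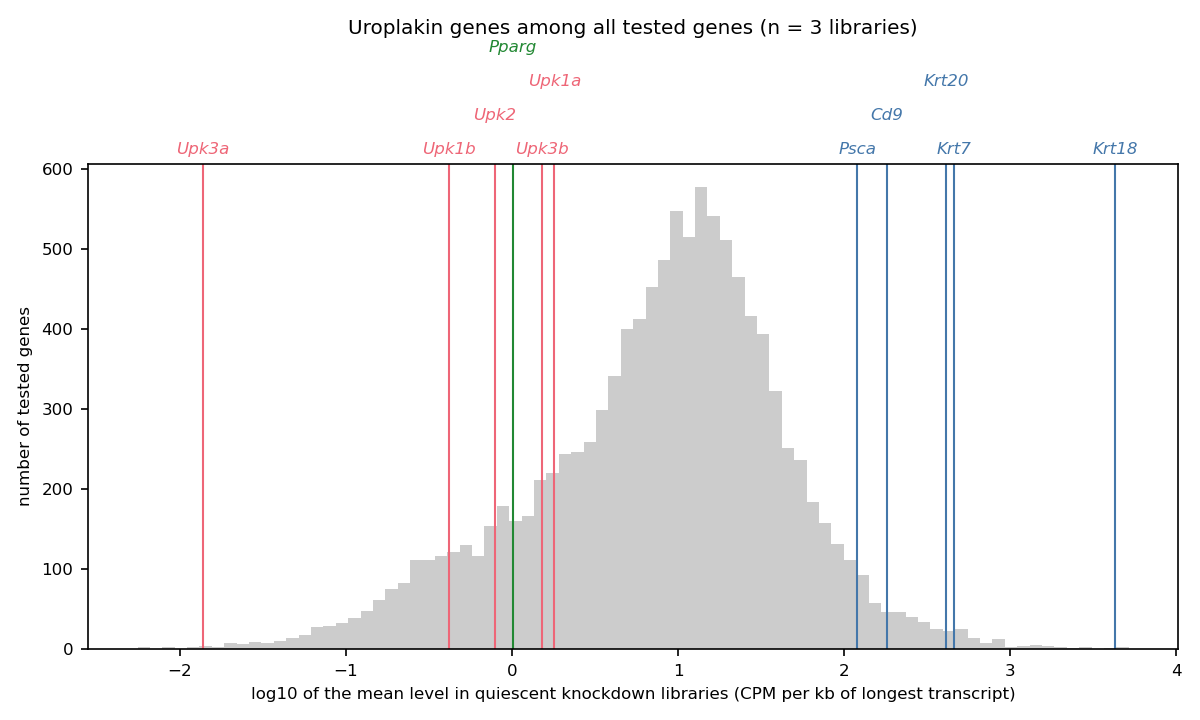
Number of tested genes (vertical axis) by the log10 of their mean level per kilobase in quiescent knockdown libraries (horizontal axis), with lines at the 5 uroplakin genes (red, of which Upk1b and Upk3a were not tested), Pparg (green) and other epithelial genes (blue). The uroplakin genes lie in the low tail, while Krt20, Krt7 and Krt18 lie at the high end.

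The labelled cell type was checked against markers. As a set the uroplakin genes mark mature urothelium, though mesothelium also makes Upk1b and Upk3b. Upk3a was at 0 in all libraries but 1 and Upk1b had at most 4 counts in all but 1. Upk1a and Upk3b were low but detected in all 12. Epcam, an epithelial adhesion gene, had at least 6672 counts in every library, and the 6 epithelial markers summed to between 8774 and 17407 CPM. The 15 basal markers summed to between 1238 and 1761 CPM in proliferating control and 1251 and 1717 CPM in proliferating knockdown libraries. In quiescent control libraries they summed to between 764 and 1071 CPM, and in quiescent knockdown libraries to between 610 and 963 CPM. In proliferating control the integrin gene Itgb4, at 579 ± 134 CPM, and Cd44, a hyaluronan receptor, at 313 ± 98.6 CPM, were high, the keratins Krt5 and Krt14 were at 3.49 ± 0.401 CPM and 9.08 ± 1.96 CPM, and the basal factor Trp63 had 0 counts. Markers of other cell types were mostly at or near 0. In the 4 groups the 9 fibroblast markers summed to between 0.428 and 2.68 CPM, with Col1a2, Col3a1 and Lum at 0 in all libraries, the 6 smooth muscle markers to between 0.280 and 0.835 CPM, and the 5 endothelial markers to between 0 and 0.238 CPM.

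Mesothelial genes were read beside Upk1b and Upk3b, since mesothelium makes both. Wt1, a defining transcription factor of mesothelium, had 0 counts in all 12 libraries, and Lrrn4 had at most 3. Msln, the mesothelin gene, was high, at 1421 ± 429 CPM in proliferating control, and fell with quiescence in control cells by 1.47 on the log2 scale (edgeR adjusted p 0.00357, SE 0.27). Bnc1 and Cpe, which mesothelial and other cells express, also fell there, by 2.57 (edgeR adjusted p 0.0190) and 1.73 (0.0388). These were 3 of 4 tested markers, with a list median of -1.60. The other one, Aldh1a2, was at -0.52 (edgeR adjusted p 0.711) and was not called. Summed over the 9 markers the list was between 1872 and 3860 CPM in proliferating control, 1604 and 3662 CPM in proliferating knockdown, 679 and 1262 CPM in quiescent control and 732 and 1106 CPM in quiescent knockdown libraries. These sums are mostly Msln and Cpe. Aldh1a2, a retinoic acid enzyme made by mesothelium among other tissues, was low and differed from them, with means of 0.913 ± 0.387, 1.56 ± 0.963, 0.627 ± 0.497 and 1.96 ± 1.74 CPM in the same order of groups. It had its most counts, 66, in quiescent knockdown of experiment 9, the library with the highest Upk3b and Upk1b. Its log2 ratio with the knockdown in quiescent cells was 1.61 (edgeR adjusted p 0.509, SE 0.86). The part of this marker in the uroplakin values was not tested. Among the leukocyte markers Ptprc, which marks all white blood cells, had 0 to 9 counts and Cd3e 0. Csf1r, a receptor of macrophages, had its group means in the same order as Upk3b, at 20.8, 35.8, 42.0 and 125 CPM in proliferating control, proliferating knockdown, quiescent control and quiescent knockdown. Cd68, the other tested marker of the list, was at 3.76, 4.69, 5.56 and 4.75 CPM, so its mean was highest in quiescent control. The leukocyte list, which is mostly Csf1r, summed to between 15.5 and 61.8 CPM in the first 3 of these groups and between 110.2 and 169 CPM in the last. The part of this signal in the uroplakin values was not tested.

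Genes that act around uroplakins were counted next. Among all tested genes, 8.33% rose and 11.7% fell with quiescence in control cells. Of 14 regulators of urothelial differentiation, 13 were tested, and 3 rose with quiescence in control cells, Gata3, Elf3 and Ehf, while 0 fell. Gata3, a zinc finger factor of luminal urothelium, went from 28.0 ± 1.70 CPM to 77.2 ± 38.5 CPM, a log2 ratio of 1.47 (edgeR adjusted p 0.0263, SE 0.40). The ETS factors Elf3 and Ehf had log2 ratios of 1.27 (edgeR adjusted p 0.0443, SE 0.40) and 1.14 (edgeR adjusted p 0.0390, SE 0.35). With the term for experiment 5 of the 13 were called, all higher, where 2083 of all 12406 tested genes were called higher. The list's median was 0.47.

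Pparg, which encodes the receptor that rosiglitazone binds, was low throughout. Its mean was 4.73 ± 2.63 CPM in proliferating control, 2.91 ± 0.971 in proliferating knockdown, 6.12 ± 2.24 in quiescent control and 2.16 ± 0.325 in quiescent knockdown libraries. In quiescent cells its log2 ratio with the knockdown was -1.50 (edgeR adjusted p 0.175, SE 0.43), and it was called with the term for experiment, at -1.45 (edgeR adjusted p 0.0207). Gata6, a relative of Gata3, was likewise called lower with the term, at -1.15 (edgeR adjusted p 0.0238). The means of Upk3b and Upk2 were highest in the group where the mean of Pparg was lowest. Any link between these levels was not tested.

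Of 14 genes for the trafficking of uroplakin vesicles and for apical transport, 13 were tested, and 2 rose with quiescence in control cells. These were Mal, a raft protein of apical transport, with a log2 ratio of 1.12 (edgeR adjusted p 0.00356, SE 0.20), and its relative Mal2, with 0.80 (edgeR adjusted p 0.0161, SE 0.20). The list's median was 0.31. Mal went from 243 ± 64.6 CPM to 527 ± 20.8 CPM. Snx31, a sorting nexin that binds uroplakins, was not tested, with 20 counts in all libraries together. Rab27b, a small GTPase of the vesicles that carry uroplakins to the surface, was between 29.5 and 49.8 CPM in the group means. With the term for experiment the knockdown lowered it in quiescent cells, by 0.75 on the log2 scale (edgeR adjusted p 0.0238), but not on group means (0.527).

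The 22 other tetraspanins listed summed to between 2195 and 3335 CPM in a library. Of 21 tested, 2 rose and 1 fell with quiescence in control cells: Tspan33 by 3.08 (edgeR adjusted p 0.00169) and Cd81 by 0.56 (0.0179) on the log2 scale, while Tspan4 fell by 1.89 (0.00730). The list's median was 0.29. The log2 ratio of Upk1a, 1.15, lay within this range.

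Markers of umbrella and intermediate cells moved in both directions. Of 19 listed, 13 were tested, and 1 rose and 2 fell with quiescence in control cells. Cldn4, a tight junction claudin, rose from 773 ± 207 CPM to 1847 ± 429 CPM, a log2 ratio of 1.26 (edgeR adjusted p 0.00544, SE 0.25). Krt20 fell from 1223 ± 143 CPM to 622 ± 123 CPM, a log2 ratio of -0.97 (edgeR adjusted p 0.00391, SE 0.18), and Krt4, a keratin of stratified epithelium, fell by 2.86 (edgeR adjusted p 0.0113, SE 0.66). Of 10 tested basal markers 4 fell and 0 rose, and the list's median was -0.56. Among them were the nerve growth factor receptor Ngfr with a log2 ratio of -5.57, Krt14 with -4.16 and Krt5 with -2.03 (edgeR adjusted p 0.00779, 0.000601 and 0.0130). Ngfr went from 4.30 ± 2.71 CPM to 0.0816 ± 0.141 CPM and Krt14 from 9.08 ± 1.96 CPM to 0.497 ± 0.363 CPM. With so few quiescent counts the size of these ratios is uncertain. The median of the umbrella and intermediate list was 0.36.

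With quiescence in knockdown cells, where 7.59% of tested genes rose and 10.8% fell, the lists were counted again, and the difference from control cells was not tested per list. Of the regulators 1 rose (Elf3, log2 ratio 1.37, edgeR adjusted p 0.0352) and 0 fell, of the trafficking genes 2 rose, of the tetraspanins 2 rose and 1 fell, of the umbrella and intermediate markers 3 rose and 2 fell, and of the basal markers 6 fell. Psca, a surface antigen of the upper urothelial layers, was among those that rose, from 23.2 ± 5.05 CPM to 103 ± 60.3 CPM, a log2 ratio of 2.16 (edgeR adjusted p 0.0340). Its mean in quiescent control was 20.2 ± 14.1 CPM, so like Upk3b it had its highest mean in quiescent knockdown. After the knockdown itself, edgeR called 0 members of these 5 lists in either state on group means. With the term for experiment it called 8 of them in quiescent cells, where 3.55% of all tested genes were called. Lower were Pparg, Gata6 and Rab27b, as above. Higher were the tetraspanins Tspan3 (log2 ratio 0.41, edgeR adjusted p 0.0458) and Tspan14 (0.61, 0.0462), Psca (2.40, 0.0476), the cornified envelope gene Ivl (2.63, 0.00380) and the hemidesmosome collagen Col17a1 (3.76, 0.00599). Csf1r of the leukocyte list was also higher in that fit (1.63, 0.0385). The mean of Col17a1 was 0.170 CPM in proliferating control, 0.560 in proliferating knockdown and 0.169 in quiescent control. In quiescent knockdown it was 2.39 ± 1.52 CPM, the only mean above the count filter's 0.585 CPM. So Col17a1 was tested mainly through the group where it was highest.

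For quiescence, too, the term for experiment raised the counts, over all tested genes as in the lists. Of the 12406 tested genes it called 2083 higher and 2291 lower in control cells, and 1967 higher and 2129 lower in knockdown cells. In control cells 4 trafficking genes rose and 0 fell, 5 tetraspanins rose and 2 fell, 4 umbrella and intermediate markers rose and 5 fell, and 0 basal markers rose and 5 fell. In knockdown cells 4 regulators rose and 1 fell, 3 trafficking genes rose and 0 fell, 7 tetraspanins rose and 4 fell, 7 umbrella and intermediate markers rose and 3 fell, and 1 basal marker, Col17a1, rose while 6 fell. As said above, Col17a1 was tested mainly through quiescent knockdown. Gata3 (edgeR adjusted p 0.0412) and Ehf (0.0252) were among the regulators that rose in that fit, and Gata6 (0.0424) was the one that fell.

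**Figure D4:**
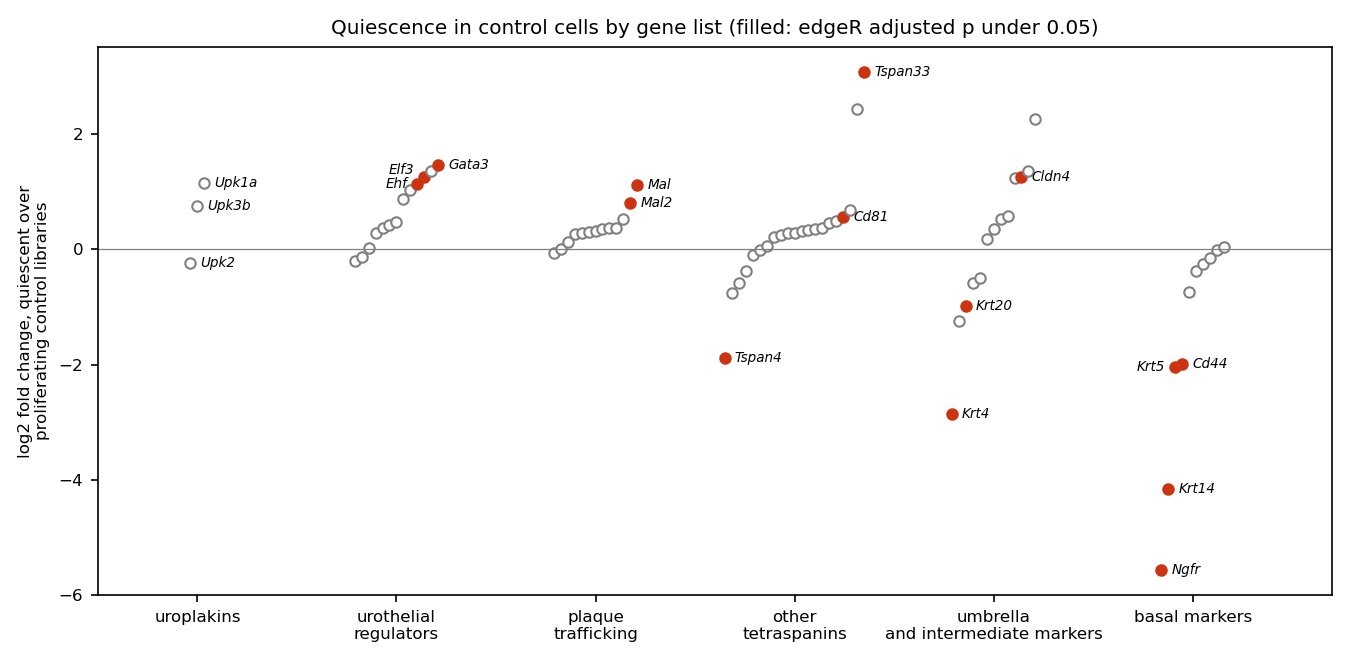
Log2 ratio of quiescence in control cells (vertical axis) for every tested gene of 6 lists, with filled points past the threshold of edgeR. The 3 uroplakin points are open, between -0.24 and 1.15, while 3 regulators and 2 trafficking genes are filled above 0 and 4 basal markers are filled below 0.

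For each tested member the 5 genes with the most similar log2 CPM over the 12 libraries were listed, by Pearson r among tested genes that averaged 1 or more in log2 CPM. For Upk1a they were Sdcbp (0.951), Hoxb9 (0.951), Zfp54 (0.935), AA986860 (0.931) and Rgmb (0.904), and for Upk2 they were Fbxo33 (0.941), Neurl3 (0.872), Ndrg2 (0.872), Pstpip1 (0.870) and Actr2 (0.865). For Upk3b they were D630045M09Rik (0.937), Smtn (0.922), Gas6 (0.920), Cst3 (0.916) and 2310043J07Rik (0.908). No gene was on more than 1 of these lists. The lists were unstable: by Spearman rho 3, 1 and 1 of the 5 were listed again for Upk1a, Upk2 and Upk3b, and with the experiment means removed 2, 1 and 0.

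The last of these symbols is an older name of Upk3bl, per the RefSeq gene table, a gene that resembles Upk3b and lies on the same strand of chromosome 5, 8.00 kb after its end. In experiments 5, 7 and 9 its level was 2.07, 4.15 and 1.48 CPM in proliferating control, 2.16, 3.69 and 5.10 CPM in proliferating knockdown, 3.24, 5.38 and 13.1 CPM in quiescent control and 10.6, 11.9 and 24.1 CPM in quiescent knockdown libraries. Quiescent knockdown was the highest group in each experiment, and the library of experiment 9 the highest of all, as for Upk3b. With the experiment means removed the r between both genes was 0.928. Upk3bl was named here for its likeness to Upk3b, so these levels are a description and were not tested.

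**Figure D5:**
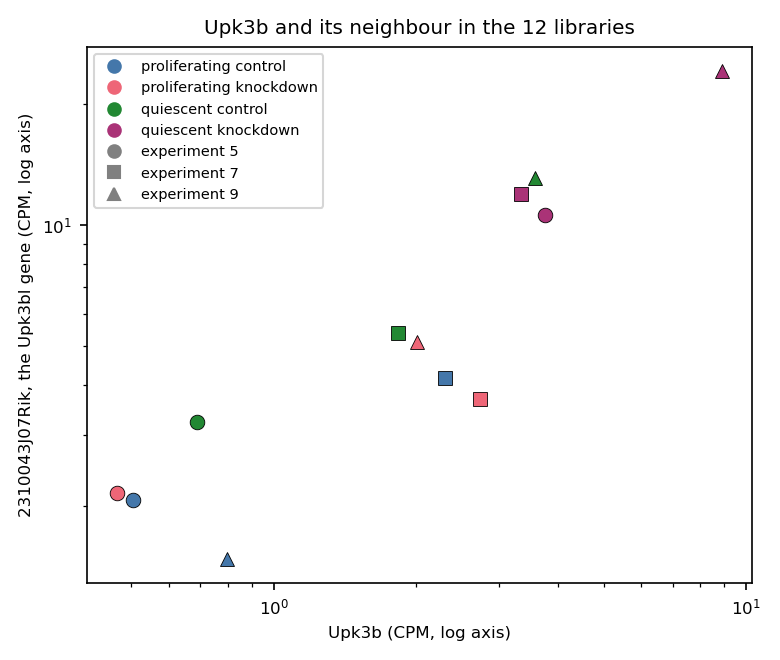
Level of Upk3b (CPM, horizontal log axis) against that of its neighbour 2310043J07Rik (CPM, vertical log axis) in the 12 libraries, by group (colour) and experiment (symbol). The quiescent knockdown libraries lie at the upper right beside quiescent control of experiment 9, and their own experiment 9 library lies at 8.90 and 24.1 CPM.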

How the data were processed

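RNA was measured by poly(A) sequencing with a stranded kit, per the labels' protocols. The authors deposited 1 table of raw counts per gene symbol, with no normalization, for 12 libraries. The submitters' processing notes name Bowtie, TopHat, HTSeq and DESeq2 and the build mm10, and the annotation and strand setting are not given in the sources used here. No pair of replicates was identical (chi-square per degree of freedom 29.7 to 81.5).

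Counts were fitted in R 4.3.3 with edgeR 4.0.16: filterByExpr (minimum count 10), TMM, group means over all 12 libraries, glmQLFit and glmQLFTest, and Benjamini-Hochberg adjustment over 12406 genes with a threshold of 0.05. SE is the log2 coefficient divided by the square root of the F statistic. CPM uses TMM-scaled totals, and log2 CPM a prior count of 2. Lengths came from GENCODE M21 and matched 89.8% of symbols. The fit was tested on simulated data with no experiment effect, where the changed genes averaged above the uroplakin genes. That test therefore does not show how the fit performs at uroplakin levels.

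Experiment numbers (5, 7, 9) coincide with the batches in the labels. Deviations from the group means correlated between same-numbered libraries (mean r 0.526, 0.225 to 0.789, 18 pairs), so the numbers pair the samples. The fit with a term for experiment (the replicate block) is given where it changes the call of a member, or of a listed gene between hairpins. For quiescence it is given as counts for the regulator, trafficking, tetraspanin, umbrella and basal lists, and not for every named gene. Alternatives were the block, DESeq2 1.42.0, median-of-ratios size factors, other count filters, fewer libraries and leaving out each library. Members and lists were chosen with earlier results of these data known. Named genes are the members, the 5 most similar genes for each tested member, regulators past the threshold, and up to 3 called genes of each other list by size. Pparg, Gata6, Psca, Ivl, Col17a1, Tspan3, Tspan14, Rab27b, Snx31, Cd9, Cd44, Itgb4, Aldh1a2, Csf1r, Cd68, Epcam, Krt7, Krt18 and the markers at or near 0 were named after their values were seen.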

Additional observations from a re-analysis of the deposited data

How the results depend on the processing

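Few counts limit these results: Upk3a and Upk1b could not be tested, and the test of Upk2 rested on 107 counts. In 4 of the 5 contrasts 0 uroplakin genes were past the threshold in every alternative that gave a value. In quiescence of knockdown cells the replicate block gave 1 gene, Upk3b, in place of 0. The block together with leaving out 1 library, added after seeing the data, gave between 0 and 1. The block, for libraries paired by experiment number, changed no other uroplakin call. No member had a mean count of at least 50, so that filter gave no value. The fold changes kept their direction and side of the threshold in 165 of 177 alternative values, 11 changed sign and 1 was stronger. This leaves out the 18 fold changes with the block and 1 library left out, of which 15 kept both, 1 changed sign and 2, both of Upk3b, were past the threshold. None of those that changed sign was called. Upk1a with knockdown in quiescent cells, 0.01, was -0.0094 with no filter on low counts and -0.0017 in a fit of only the libraries of the contrast. Leaving out 1 library gave -0.45 to 0.36 for that value, -0.050 to 0.72 for Upk1a and -0.015 to 1.13 for Upk2 with knockdown in proliferating cells, -1.51 to 0.58 for Upk2 with quiescence in control cells, and -0.83 to 0.060 for Upk1a and -0.029 to 1.53 for Upk3b in the interaction. With the block and 1 library left out, Upk2 with quiescence in knockdown cells was -0.037 to 1.49. The cause was not tested.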
